A study of Mus musculus with 4 samples.

Results

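The genes described here were 40 genes of mitosis, taken by symbol from the 32285 genes of the files, and each of the 40 was found. They were followed in invariant natural killer T (iNKT) cells of the thymus, T cells with a semi-invariant receptor for lipids shown by CD1d, profiled by droplet single-cell RNA-seq. The mice were 6 to 8 weeks old, and their CD3+ cells that bound the CD1d tetramer were collected by magnetic enrichment and then by cell sorting. Wild-type mice (WT) gave 2 libraries and mice labelled ACC1KO (ACC1 KO here) gave 2, numbered 1 and 2 in each genotype. The gene Acaca encodes ACC1, an acetyl-CoA carboxylase whose step limits the rate of fatty acid synthesis, and the series title ties it to the survival of thymic iNKT cells. Where 4 values are listed, they stand in library order: WT 1, WT 2, ACC1 KO 1, ACC1 KO 2. The strain, the driver of the deletion, the part of Acaca deleted and whether each library came from its own mouse were not stated in the labels, so p-values measure the spread between these libraries. Acaca itself stood at 32.4 and 32.1 CPM (unique molecular identifiers or UMIs, each 1 captured RNA molecule, scaled to an equal library total) in WT and at 47.2 and 61.2 CPM in ACC1 KO, and so was not lower in the ACC1 KO libraries. Reads from a 3′ kit that fall outside a deleted part check nothing about the deletion.

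Mitosis is driven by the cyclin-dependent kinase Cdk1 with its A and B cyclins, and its genes are switched on late in the cycle and shut off in resting cells. Kinetochores tie chromosomes to the spindle, a checkpoint holds the anaphase promoting complex until every chromosome is attached, and a contractile ring then divides the cell. In the thymus, young iNKT cells and the IL-4 producing iNKT2 subset hold many of the dividing cells, while most cells of the interferon-gamma producing iNKT1 subset rest. The 40 members were put into 7 groups by role: Cdk1 and its partners, mitotic kinases, checkpoint and anaphase promoting complex, centromere and kinetochore, spindle, cytokinesis, and chromosome structure.

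The deposited files held 5499 and 9927 barcodes for WT 1 and WT 2 and 6416 and 8613 for ACC1 KO 1 and ACC1 KO 2, and their UMIs added up to 29.1, 72.8, 33.2 and 74.2 M. The Y-linked gene Ddx3y was found in both libraries numbered 1 (78.5 and 78.0 CPM) and Xist in both numbered 2 (601 and 671 CPM), so number, depth and the sex of the mice moved together, and differences within each number are given beside pooled ones. Between 10 and 27 barcodes were shared by any pair of libraries. After filters, removal of doublets and removal of cells like double-positive thymocytes (622), B cells (558) and myeloid cells (70), there remained 4603, 9015, 5592 and 7787 iNKT cells in library order. The T cell genes Cd3e (463 to 700 CPM) and Trac (481 to 650 CPM) and the iNKT regulator Zbtb16 (193 to 310 CPM) were present in every library, and Cd8a was at 1.49 CPM or lower. Clusters were made without the members and without genes that follow them, and were named from marker genes. They gave 3729, 7593, 4132 and 5944 iNKT1-like cells, 200, 264, 396 and 603 iNKT2-like cells, and 530, 987, 900 and 1080 interferon-responding-like cells in library order. iNKT0-like cells (45 to 115) and iNKT17-like cells (25 to 85 per library) were fewer. The iNKT1-like class held different clusters in the genotypes: a cluster led by Gzma made up 3.56 and 3.40% of WT and 17.1 and 13.9% of ACC1 KO iNKT cells, and a cluster led by Atp8a2 made up 23.6 and 14.5% against 10.2 and 7.08%.

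Promoter sequence is shown for 5 members, because the members varied together across cells and libraries and mitotic promoters are known for a pair of short elements. CCAAT is the element of the factor NF-Y, and TTTGAA is the core of the cell cycle genes homology region, read by the DREAM, B-Myb and Foxm1 complexes. Of the 40 members, 36 matched a RefSeq promoter window of build GRCm38.p6, out of 27025 genes with one. In the 250 bases before the start site, on either strand, CCAAT was found in 27 of 36 members (75%) and in 34.5% of all genes with a window. More than 1 CCAAT was found in 19 members (52.8%) and in 10.5% of all genes. TTTGAA was found in 14 members (38.9%) and in 16.3% of all genes, and both elements were found in 13 members (36.1%) and in 5.73% of all genes. The elements shared bases in none of the 36 members. The 200 bases before the start are printed for Ube2c (chr2:164769698-164769897 on the plus strand), Cenpf (chr1:189688087-189688286 on the minus strand), Kif11 (chr19:37376182-37376381 on the plus strand), Top2a (chr11:99024190-99024389 on the minus strand) and Birc5 (chr11:117849037-117849236 on the plus strand), each 5′ to 3′ on its gene's strand. Capitals mark CCAAT or its reverse complement ATTGG, and TTTGAA or TTCAAA.
Ube2c: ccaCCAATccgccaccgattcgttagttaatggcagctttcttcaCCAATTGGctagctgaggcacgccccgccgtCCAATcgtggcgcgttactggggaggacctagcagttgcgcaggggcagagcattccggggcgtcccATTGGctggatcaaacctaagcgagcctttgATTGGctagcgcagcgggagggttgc
Cenpf: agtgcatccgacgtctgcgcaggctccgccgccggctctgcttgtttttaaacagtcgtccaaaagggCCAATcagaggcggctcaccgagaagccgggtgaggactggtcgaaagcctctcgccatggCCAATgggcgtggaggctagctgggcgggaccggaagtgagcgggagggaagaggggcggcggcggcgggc
Kif11: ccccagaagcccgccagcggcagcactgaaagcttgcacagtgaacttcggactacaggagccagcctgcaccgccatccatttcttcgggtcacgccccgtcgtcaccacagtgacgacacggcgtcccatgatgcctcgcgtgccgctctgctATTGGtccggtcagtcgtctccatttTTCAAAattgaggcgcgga
Top2a: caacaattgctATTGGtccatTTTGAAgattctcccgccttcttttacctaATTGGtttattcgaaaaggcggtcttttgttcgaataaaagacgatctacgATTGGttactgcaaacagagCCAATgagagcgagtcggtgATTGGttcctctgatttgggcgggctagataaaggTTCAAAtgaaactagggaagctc
Birc5: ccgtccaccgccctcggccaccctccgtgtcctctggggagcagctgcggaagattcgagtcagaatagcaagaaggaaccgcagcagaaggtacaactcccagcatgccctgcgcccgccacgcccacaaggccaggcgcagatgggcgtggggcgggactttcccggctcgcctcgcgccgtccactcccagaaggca
In the printed bases Ube2c held 6 CCAAT elements, 2 of which share bases in a single run of capitals, and Top2a held 5 with 2 TTTGAA elements. Cenpf held 2 CCAAT there, Kif11 held 1 of each, and Birc5 held neither. The counted window of 250 bases was longer, and in it Ube2c also held 1 TTTGAA and Top2a held 6 CCAAT. The print of Ube2c stops 31 bases before the RefSeq start. These letters are a description of the sequence, and no binding was measured.

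Over all iNKT cells the members together made up 480 and 727 CPM in WT 1 and WT 2 and 872 and 1042 CPM in ACC1 KO 1 and ACC1 KO 2, so that the genotypes did not overlap and the ACC1 KO libraries were the high ones. No single member passed the test: edgeR's quasi-likelihood test called 0 of 40 at an adjusted p under 0.05 (0.0068% of 14702 genes tested were called), and the DESeq2 Wald test also called 0 (0.621% of genes). At an unadjusted p under 0.05 there were 8 members (4.9% of all genes). The fitted log2 fold change was above 0 for 40 of 40 members, with a median of 0.84 (from 0.13 to 1.12), against a median of -0.01 for all genes tested. In 30 of 40 members each ACC1 KO library was higher than each WT library, which held for 14.2% of all genes, and in 0 members each was lower (15.2% of genes). The counts of members apart between genotypes in each role group below are read against these same shares of genes. The members' median was 1.21 within the libraries numbered 1 and 0.64 within those numbered 2. It rested on WT 1 and WT 2 to different degrees, being 0.45 without WT 1 and 1.54 without WT 2, where 15 members were called (0.549% of genes). When cells were drawn once to the same mix of classes in every library the median was 0.24. That draw kept 3607, 3626, 2747 and 3518 cells in library order. iNKT2-like cells were 4.37 and 2.92% of WT and 7.18 and 7.75% of ACC1 KO iNKT cells.

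**Figure D1:**
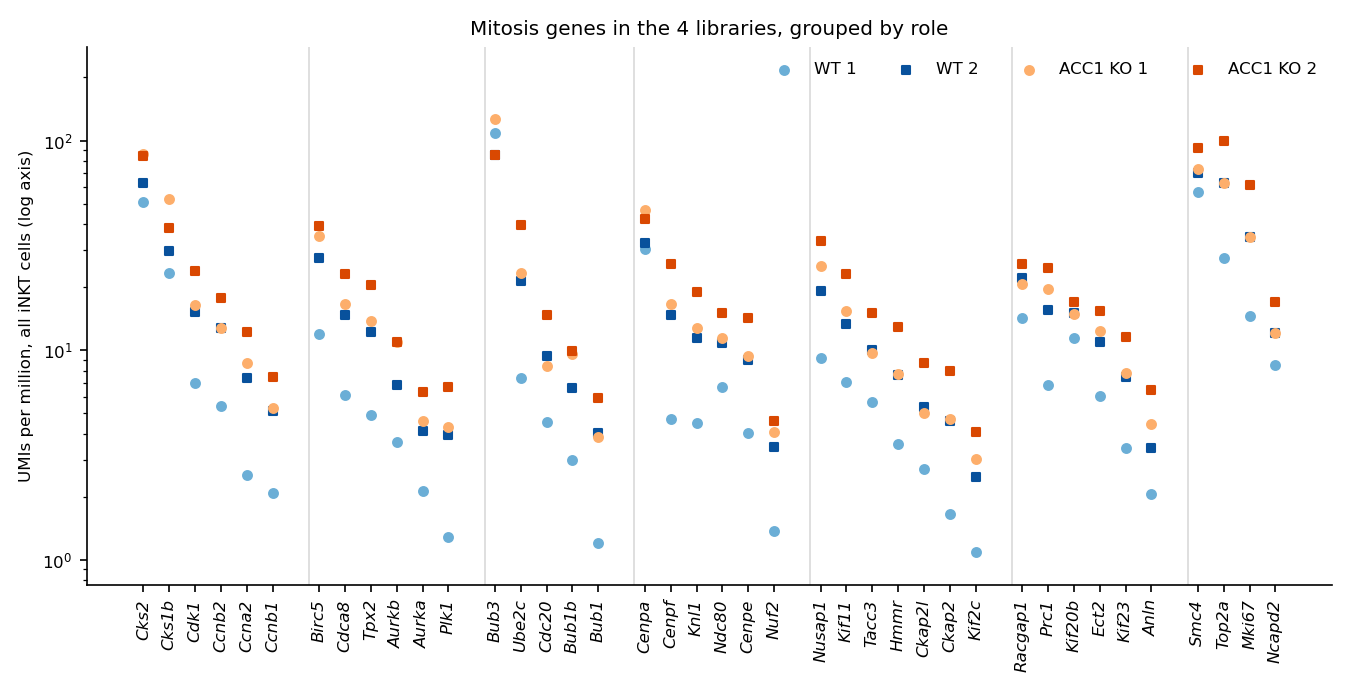
Level of each of the 40 members in CPM (log axis) over all iNKT cells, with 1 point per library and grey lines between the 7 role groups. WT 1 (pale blue circles) was the lowest library for most members, ACC1 KO 2 (dark orange squares) the highest, and WT 2 and ACC1 KO 1 often lay close together.

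Cks2 and Cks1b encode the small subunits that dock on Cdk1 and help it bind its substrates. Cks2 (chr13:51645232-51650660, GENCODE release M21 on mm10, as for all gene positions here) stood at 50.9 and 62.4 CPM in WT 1 and WT 2 and at 86.2 and 84.4 CPM in ACC1 KO 1 and ACC1 KO 2. The genotypes did not overlap, and Cks2 had the smallest unadjusted p of the members (log2 fold change 0.59 ± 0.15 SE, edgeR adjusted p = 0.709). Cks1b (chr3:89415472-89418383) stood at 23.5 and 29.6 CPM in WT and at 52.5 and 38.3 CPM in ACC1 KO, again without overlap (0.77 ± 0.21, edgeR adjusted p = 0.772). In the group of Cdk1 and its partners, which also holds Cdk1 and the cyclins Ccna2, Ccnb1 and Ccnb2, the genotypes were apart in 5 of 6 members, with a median log2 fold change of 0.78.

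The mitotic kinases Plk1, Aurka and Aurkb, the Aurora activator Tpx2, and survivin (Birc5) and borealin (Cdca8), which place Aurora B on the centromere, were apart between genotypes in 6 of 6 members (median 0.95). Birc5 (chr11:117849251-117855743) stood at 12.0 and 27.4 CPM in WT and at 34.9 and 39.0 CPM in ACC1 KO, WT 1 being the low library (0.90 ± 0.38). Cdca8 (chr4:124918465-124939311) stood at 6.12 and 14.7 CPM in WT and at 16.7 and 23.1 CPM in ACC1 KO, with WT 2 close to ACC1 KO 1 (0.92 ± 0.42). Aurkb (chr11:69045647-69051664), the kinase itself, stood at 3.67 and 6.86 CPM in WT and at 10.9 and 11 CPM in ACC1 KO (1.04 ± 0.31, edgeR adjusted p = 0.834). Its ACC1 KO libraries were nearly equal, and its log2 difference was 1.56 within number 1 and 0.68 within number 2.

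The checkpoint group was split. Bub3 (chr7:131560222-131571895), a WD-repeat protein of the spindle checkpoint, stood at 108 and 85.4 CPM in WT and at 127 and 85.3 CPM in ACC1 KO, so that its 2 libraries numbered 1 were high in both genotypes and the genotypes overlapped (0.13 ± 0.23). Bub1b (chr2:118598211-118641591), the checkpoint protein BubR1, stood at 2.98 and 6.58 CPM in WT and at 9.59 and 9.91 CPM in ACC1 KO, without overlap (1.0 ± 0.37, edgeR adjusted p = 0.993). Ube2c (chr2:164769898-164778822), the ubiquitin-conjugating enzyme of the anaphase promoting complex, had the largest fold change of the 40 (1.12 ± 0.53), from 7.33 and 21.3 CPM in WT to 23.3 and 39.7 CPM in ACC1 KO, where WT 2 and ACC1 KO 1 were close. In this group of 5, which also holds Bub1 and the activator Cdc20, 2 were apart between genotypes, and Bub1 and Cdc20 overlapped as Bub3 did.

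All 6 centromere and kinetochore members, Cenpa, Cenpe, Cenpf, Knl1, Ndc80 and Nuf2, were apart between genotypes (median 0.82). Cenpa (chr5:30666777-30674830), the histone H3 variant that marks centromeres, was tight within genotype at 30.5 and 32.4 CPM in WT and 46.4 and 42.2 CPM in ACC1 KO (0.49 ± 0.13, edgeR adjusted p = 0.764). Cenpf (chr1:189640606-189688086), a large protein of the outer kinetochore, spread more, at 4.71 and 14.7 CPM in WT and 16.6 and 25.8 CPM in ACC1 KO (1.10 ± 0.53). The smaller change of Cenpa therefore had the smaller error.

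Of the 7 spindle members, 5 were apart between genotypes (median 0.90), and Tacc3 and Ckap2l overlapped. Nusap1 (chr2:119618298-119651244), which bundles spindle microtubules, stood at 9.15 and 19.2 CPM in WT and at 25.2 and 33.2 CPM in ACC1 KO (1.03 ± 0.36, edgeR adjusted p = 0.938). Kif11 (chr19:37376403-37421859), the motor that pushes the spindle poles apart, stood at 7.05 and 13.4 CPM in WT and at 15.4 and 23.1 CPM in ACC1 KO (0.90 ± 0.36). Kif2c, Hmmr and Ckap2 were the other members apart here.

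Among the 6 cytokinesis members 4 were apart (median 0.75), and Racgap1 and Kif20b overlapped. Racgap1 (chr15:99620496-99651656), a subunit of the centralspindlin complex, stood at 14.2 and 22.1 CPM in WT and at 20.8 and 25.9 CPM in ACC1 KO, ACC1 KO 1 lying between the WT libraries (0.36 ± 0.25). Prc1 (chr7:80294450-80316259), which cross-links microtubules of the central spindle, stood at 6.81 and 15.5 CPM in WT and at 19.5 and 24.7 CPM in ACC1 KO (0.97 ± 0.39). Anln (chr9:22332012-22389188), the scaffold of the contractile ring, stood at 2.06 and 3.40 CPM in WT and at 4.42 and 6.46 CPM in ACC1 KO (0.98 ± 0.34, edgeR adjusted p = 0.938). Neither of these pairs overlapped.

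The 4 members of chromosome structure were apart in 2 cases (median 0.67). Smc4 (chr3:69004738-69034623), the core subunit of condensin, stood at 56.9 and 70.1 CPM in WT and at 72.8 and 92.0 CPM in ACC1 KO, with WT 2 and ACC1 KO 1 near each other (0.38 ± 0.18). Top2a (chr11:98992943-99024189), the topoisomerase that untangles sister chromatids, stood at 27.4 and 62.4 CPM in WT and at 62.9 and 99.2 CPM in ACC1 KO (0.85 ± 0.43), where WT 2 and ACC1 KO 1 were nearly level. Mki67, the common stain for dividing cells and chosen here after its values were seen, overlapped at 14.5 and 34.6 CPM in WT and 34.5 and 61.3 CPM in ACC1 KO. Ncapd2 overlapped as well.

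The mean level of a gene over cells is the share of cells with a UMI times the UMIs in those positive cells, and the 2 factors were measured apart. For this split every cell was thinned to 2000 UMIs, which left out 23, 23, 122 and 21 shallower cells in library order. In 33 of 40 members the share of positive cells was above both WT libraries in both ACC1 KO libraries (9.9% of 12568 genes tested). Over the 32 members with at least 10 positive cells in every library, the median log2 difference was 0.89 in the share (from 0.02 to 1.95) and 0.10 in the UMIs per positive cell (from -0.07 to 0.25). A positive cell cannot hold fewer than 1 UMI, and at this depth these members held a median of 1.18 UMIs per positive cell (from 1.0 to 2.2 over members and libraries). At counts this sparse a change in the mean shows mostly as a share, so the split cannot tell whether the RNA per expressing cell also differed. Neither factor passed its test for any member. The share gave 0 calls of 40 by edgeR (0.0239% of genes called) and 24 members at an unadjusted p under 0.05 (4.49% of genes), and 8 members were called without ACC1 KO 1 (0.827% of genes). The level per positive cell gave 0 calls of 32 by limma (0.0% of 11408 genes) and 5 at an unadjusted p under 0.05 (3.87% of genes), and no other tool was run on either factor.

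Ube2c was found in 0.218 and 0.623% of WT cells and in 1.19 and 1.70% of ACC1 KO cells, with 1.5 and 2.0 against 2.09 and 1.95 UMIs in each positive cell. Thus its shares were apart while its level overlapped. Top2a was found in 1.16 and 2.01% of WT and 2.87 and 4.04% of ACC1 KO cells, with 1.77 and 2.2 against 1.97 and 2.09 UMIs per positive cell, the same pattern. Cks2 was found in 7.88 and 7.83% of WT and 11.5 and 10.5% of ACC1 KO cells, with 1.15 and 1.12 against 1.26 and 1.19 UMIs per positive cell, so that both factors were apart. Bub3 was found in 20.2 and 14.7% of WT and 21.8 and 14.1% of ACC1 KO cells, following the library number and not the genotype. Without thinning the shares of Ube2c were 0.652, 1.40, 2.29 and 3.58%, and those of Top2a 2.74, 4.33, 5.19 and 7.95%, in library order.

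**Figure D2:**
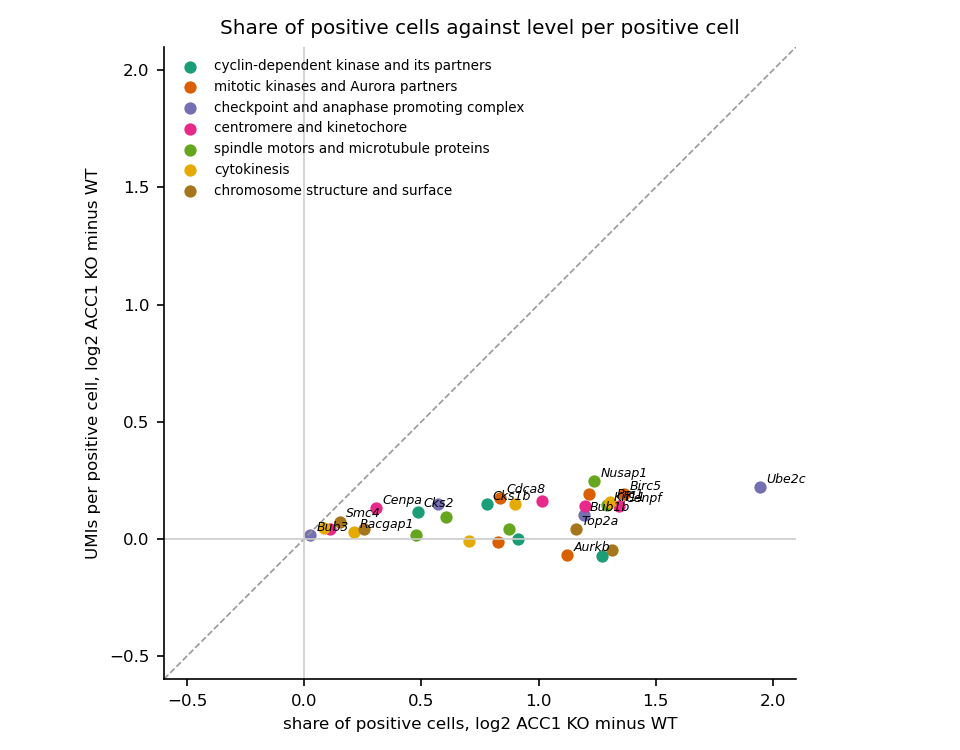
Log2 difference between ACC1 KO and WT in the share of positive cells (horizontal) and in the UMIs per positive cell (vertical), at 2000 UMIs per cell, for the 32 members with at least 10 positive cells in every library, coloured by role. Points lie along the horizontal axis, below the dashed line of equal differences, from 0.02 to 1.95 in share and from -0.07 to 0.25 in level.

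Free RNA in droplets gives some positive cells for any gene, and 392 cells of the largest B cell-like cluster, thinned in the same way from a median of 3720 UMIs, served as a yardstick, although B cells may transcribe these genes as well. Before shallow cells were left out, that cluster held 241, 14, 122 and 37 cells in library order. The B cell-like share was pooled over libraries, so WT 2 and ACC1 KO 2 gave little to it. In 22 members the iNKT share was above the B cell-like share in every library, and in 30 it was above it in both ACC1 KO libraries. These counts were not made over all genes, so they do not set the members apart from other genes. Aurka, Bub1, Cenpa, Knl1, Ndc80 and Smc4 never exceeded the B cell-like share. For those 6 the share of positive iNKT cells cannot be told from background by this measure: Smc4 was found in 17.3% of the B cell-like cells and in 9.31 to 10.8% of iNKT cells, and Cenpa in 7.65% and in 3.57 to 5.17%. The B cell-like shares of Bub1 and Aurka rested on only 2 and 4 positive cells. Each of those 6 members was found more often in iNKT cells with at least 6 of the other members than in the rest. For Bub1 it was 11.7 against 0.0609%, and for Knl1 31.8 against 0.240%. Ube2c was found in 0.255% and Birc5 also in 0.255% of the B cell-like cells.

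Cells that carried many members at once were counted next. A cell was called mitosis-high with at least 6 of the 40 members at 2000 UMIs, which 527 of 26808 iNKT cells were. The limit cuts a range, with 51 cells at 5 members and 53 at 6. In WT 1, 32 of 4580 cells were mitosis-high (0.699%, 95% Clopper-Pearson interval 0.478 to 0.985%, for counting error only). In WT 2 it was 131 of 8992 (1.46%, 1.22 to 1.73%), in ACC1 KO 1 125 of 5470 (2.29%, 1.91 to 2.72%) and in ACC1 KO 2 239 of 7766 (3.08%, 2.70 to 3.49%). The means were 1.08% ± 0.536 (SD, n = 2) in WT and 2.68% ± 0.560 (SD, n = 2) in ACC1 KO, and the genotypes did not overlap (two-sided exact permutation p = 0.33, the smallest that 2 against 2 can give). As a ratio of geometric means the share was 2.63-fold higher in ACC1 KO. It was 3.27-fold higher within number 1 and 2.11-fold higher within number 2. With cells drawn to the same mix of classes in every library the shares were 0.808 and 2.26% in WT and 2.0 and 2.82% in ACC1 KO, where the genotypes overlapped, and the log2 ratio was 0.81 in place of 1.39. The shares were 0.342 and 0.802% against 1.48 and 1.77% without iNKT2-like cells, and 0.702 and 1.38% against 2.23 and 3.01% without the Gzma-led cluster. With the cluster led by members left out as well as those 2, they were 0.237 and 0.512% against 0.898 and 0.913%. These cells were also counted without thinning, where the shares were 1.80, 3.26, 4.20 and 6.28% in library order.

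**Figure D3:**
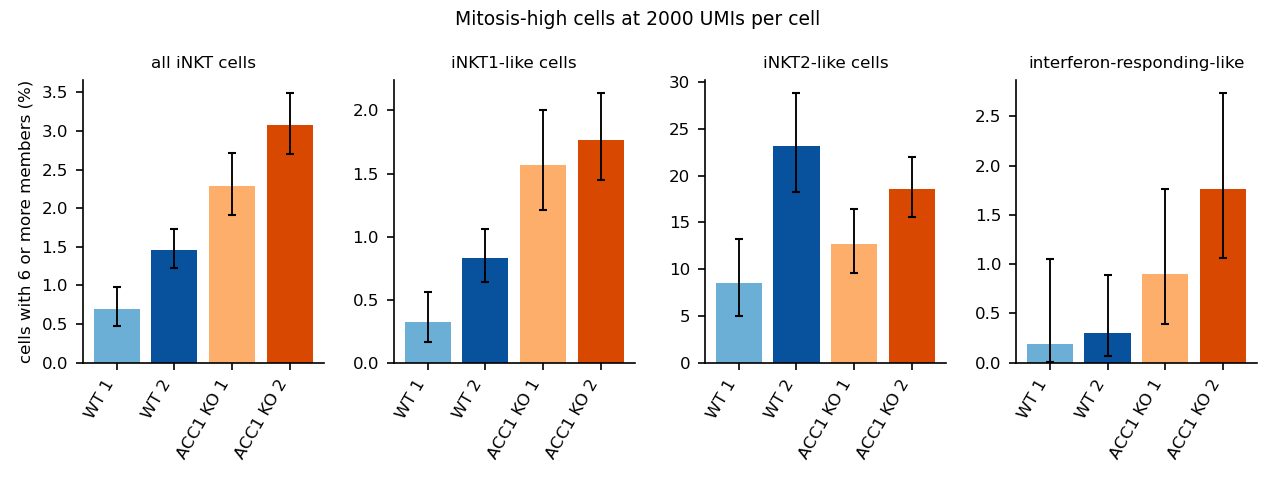
Share of cells with 6 or more members at 2000 UMIs per cell, by library, in all iNKT cells and in 3 classes, each panel with its own vertical axis from 0 and with 95% Clopper-Pearson intervals for counting error. ACC1 KO libraries were above WT libraries in all iNKT, iNKT1-like and interferon-responding-like cells, while in iNKT2-like cells WT 2 was the highest at 23.2% and WT 1 the lowest at 8.5%.

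A larger part of the member UMIs lay in mitosis-high cells in ACC1 KO than in WT. Members gave 0.720 and 0.799 UMIs per cell in WT and 1.17 and 1.16 in ACC1 KO, at 2000 UMIs per cell. Of these, 16.4 and 35.2% in WT and 41.8 and 51.6% in ACC1 KO lay in mitosis-high cells. A mitosis-high cell held 16.9 and 19.3 member UMIs in WT and 21.3 and 19.4 in ACC1 KO, while any other cell held 0.606 and 0.526 against 0.696 and 0.577, which overlapped. Leaving Bub3, Smc4 and Cks2 out of the count for other cells gave 0.194 and 0.201 in WT and 0.243 and 0.229 in ACC1 KO. Between 52.4 and 61.1% of other cells had no member at all. Mitosis-high cells were chosen on the members themselves, so levels inside them are described with no test. There the median log2 difference of UMIs per cell between genotypes was 0.22 (from -0.57 to 1.28 over members). WT 1 held only 32 such cells, and this difference was not computed over all genes.

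Members differed in how far they marked these cells, each scored on the remaining members. Top2a was found in 76.5% of mitosis-high cells, Mki67 in 66.1%, Birc5 in 61.7% and Cks2 in 59.6%. At the other end stood Anln (10.7%), Kif2c (10.6%), Aurka (10.1%) and Nuf2 (9.9%). Being found often did not make a member specific: 94.8% of the UMIs of Hmmr, a spindle assembly protein, 90% of those of Kif2c, a motor that takes microtubules apart, and 89.4% of those of Ube2c came from mitosis-high cells, but only 4.62% of those of Bub3, 15.5% of those of Smc4, 18.9% of those of Racgap1 and 19.0% of those of Cks2. Bub3 was found in 34.8% of mitosis-high cells and in 16.6% of the others, so most of its RNA lay outside mitosis-high cells. Apart from the named members Top2a, Birc5, Cks2, Anln, Ube2c, Bub3, Smc4 and Racgap1, these were chosen after their values were seen. Within mitosis-high cells, the closest pairs were Ube2c with Cenpf (Pearson r = 0.404 across cells, as a description), Nusap1 with Top2a (0.367) and Ube2c with Cenpa (0.356). The lowest was Cenpa with Top2a (-0.142). All pairs share the libraries and the thinned depth. The cells were also selected on these same members, which by itself can shift such correlations.

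**Figure D4:**
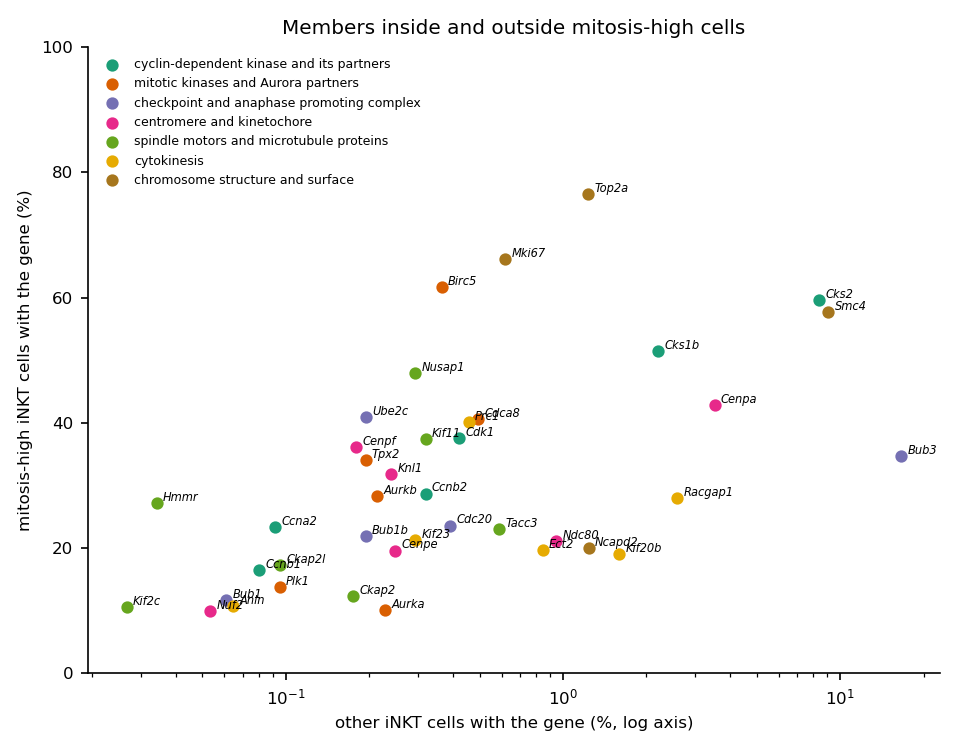
Share of mitosis-high cells (vertical, %) against the share of other iNKT cells (horizontal, %, log axis) in which each member was found, at 2000 UMIs per cell and with mitosis-high cells scored on the other members. Top2a stands at the top with 76.5%, Hmmr and Kif2c at the far left, and Bub3, Smc4 and Cks2 at the far right.

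Mitosis-high cells were larger by their RNA and also carried genes of the cycle that did not choose them. Before thinning their median was 14685, 19337, 10531 and 18371 UMIs in library order, against 4656, 6183, 4483 and 7256 in other cells. The ratio had a geometric mean of 2.77-fold and was above 1 in 4 of 4 libraries (two-sided exact sign-flip permutation p = 0.13, the smallest that 4 pairs can give). The median mitosis-high cell held 7 to 9 of the 51 S phase genes and 6 to 8 of 56 other mitosis genes, against 1 and 0 in other cells. It held 1 to 3 of the 12 iNKT1 markers, against 6 in other cells. Of the 10 iNKT2 markers it held 1 to 2, against 1. It held a median of 0 markers of double-positive thymocytes, B cells and myeloid cells in every library. These medians and the UMI ratio were not taken within class, and 40 to 53.1% of mitosis-high cells were iNKT2-like. The part of doublets in these values was not tested, and with doublets kept the log2 ratio of mitosis-high shares between genotypes was 1.40, against 1.39 without them.

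The iNKT2-like class was 1 cluster of 1463 cells that scored 3.04 for iNKT2 and 1.92 for iNKT0 markers, and its 10 leading genes held 2 markers of each (Plac8 and Zbtb16, Id3 and Ccr9), so it was not clear of markers of early iNKT cells. Between classes, every member was higher in iNKT2-like than in iNKT1-like cells. edgeR called 40 of 40 higher (29.7% of 13564 genes), with a median log2 fold change of 2.82, from 0.52 ± 0.08 for Bub3 (adjusted p = 2.13e-05) to 4.27 ± 0.21 for the cyclin Ccnb1 (adjusted p = 1.99e-09), the latter chosen after its value was seen. Top2a stood at 8.27, 29.9, 37.3 and 49.4 CPM in iNKT1-like cells and at 223, 427, 234 and 363 CPM in iNKT2-like cells, in library order (3.36 ± 0.46, edgeR adjusted p = 0.00873). Ube2c stood at 0.411, 7.65, 11.7 and 17.5 CPM in iNKT1-like and at 70.7, 182, 91.1 and 162 CPM in iNKT2-like cells (3.83 ± 0.66, edgeR adjusted p = 0.0160). For both genes the classes were apart in every library. Cenpa stood at 18.3, 19.7, 28.7 and 25.6 CPM in iNKT1-like and at 149, 171, 148 and 134 CPM in iNKT2-like cells, a difference with little spread (2.63 ± 0.15, edgeR adjusted p = 4.94e-06). Cks2, at 40.1 to 67.6 CPM and 168 to 211 CPM, and Cks1b, at 10.7 to 34.8 CPM and 120 to 176 CPM, were apart in the same way.

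The classes were split in the same way, with the same limit: the 11 members used held a median of 1.15 UMIs per positive iNKT1-like cell and 1.44 per positive iNKT2-like cell. The median member was found in 0.269, 0.547, 0.761 and 0.892% of iNKT1-like cells and in 3.5, 6.46, 4.45 and 5.98% of iNKT2-like cells in library order, at 2000 UMIs per cell. Over the 11 members with at least 10 positive cells in every class and library, the median log2 difference in share was 3.14, 3.46, 2.36 and 2.49, and in UMIs per positive cell it was 0.21, 0.16, 0.25 and 0.10. Of iNKT2-like cells 8.5, 23.2, 12.7 and 18.6% were mitosis-high, against 0.323, 0.830, 1.57 and 1.77% of iNKT1-like cells. That made 26.3-fold and 27.9-fold in WT and 8.10-fold and 10.5-fold in ACC1 KO. The geometric mean was 15.8-fold, and iNKT2-like cells were higher in 4 of 4 libraries (two-sided exact sign-flip permutation p = 0.13). iNKT2-like cells made up 53.1 and 46.6% of the mitosis-high cells of WT and 40 and 46.9% of those of ACC1 KO.

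The genotype difference was not the same in the classes. In iNKT1-like cells the summed members stood at 314 and 476 CPM in WT and at 635 and 684 CPM in ACC1 KO. There the median log2 fold change was 1.13 and both ACC1 KO libraries were above both WT libraries in 37 of 40 members (13.9% of genes), while edgeR called 0 of 40 (0.0145% of genes; 11 at an unadjusted p under 0.05, against 4.18% of genes) and DESeq2 called 0 (0.544% of genes). The median was 1.97 within number 1 and 0.72 within number 2, and 2.2 without WT 2, where 11 members were called (0.254% of genes), and 0.55 without WT 1. In iNKT2-like cells the summed members stood at 2080 and 3551 CPM in WT and at 2361 and 2954 CPM in ACC1 KO, so both ACC1 KO libraries lay between the WT libraries. The median there was -0.08, edgeR called 0 of 40 (0.0% of 10974 genes; 0 at an unadjusted p under 0.05, against 1.9% of genes), DESeq2 called 0 (0.0293% of genes), and 0 members were above (11.9% of genes) and 1 below (11.2% of genes) in both libraries. Leaving out 1 library moved that median from -0.47 to 0.50.

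The difference between these differences was tested directly. The ACC1 KO change was lower in iNKT2-like than in iNKT1-like cells for 19 of 40 members by edgeR (0.619% of genes), higher for 0 (0.0885% of genes), and below 0 for 40 of 40, with a median of -1.26 (from -1.90 to -0.18). The DESeq2 Wald test called 18 lower (0.285% of genes), 14 of them among those 19. Cks1b is an example: its log2 fold change was 1.07 ± 0.29 in iNKT1-like cells (10.7 and 16.9 against 34.8 and 23.8 CPM) and -0.19 ± 0.23 in iNKT2-like cells (149 and 176 against 166 and 120 CPM), a difference of -1.27 ± 0.15 (edgeR adjusted p = 5.97e-05). Nusap1 (-1.31 ± 0.19, edgeR adjusted p = 0.00122), Aurkb (-1.31 ± 0.25, adjusted p = 0.00680), Bub1b (-1.33 ± 0.25, adjusted p = 0.00664) and Cdca8 (-1.07 ± 0.18, adjusted p = 0.00279) passed as well. Cenpa (-0.71 ± 0.14, adjusted p = 0.0105) and Cks2 (-0.60 ± 0.14, adjusted p = 0.0312) passed with smaller changes by edgeR. Ube2c had the largest difference, -1.90 ± 0.78, and did not pass (edgeR adjusted p = 0.747), its WT 1 level of 0.411 CPM in iNKT1-like cells lying far below that of WT 2. By role, 5 of 6 partners of Cdk1, 4 of 6 mitotic kinases, 2 of 5 checkpoint members, 3 of 6 of the centromere, 4 of 7 of the spindle, 0 of 6 of cytokinesis and 1 of 4 of chromosome structure passed. The calls depended on how the classes were drawn. With the members and the genes that follow them left in the clustering, 0 of 40 passed (0.0812% of genes), the median difference was -0.49, and the median within iNKT1-like cells was 0.56. At 2000 UMIs per cell 9 passed (0.299% of genes), and without WT 1 29 passed (1.74% of genes).

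**Figure D5:**
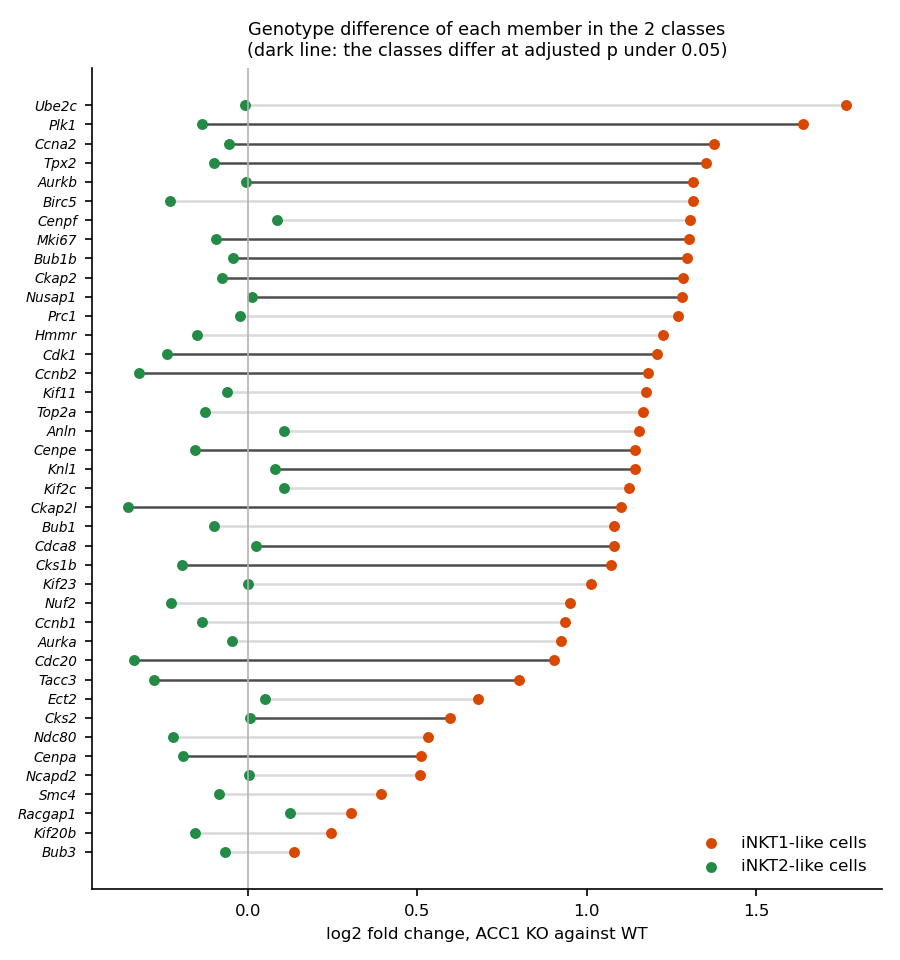
Log2 fold change of each member between ACC1 KO and WT in iNKT1-like cells (orange) and in iNKT2-like cells (green), from edgeR, in order of the iNKT1-like value. Green points lie around 0 and orange points to the right of them in all 40 members, and dark lines mark the 19 members whose 2 changes differed at an adjusted p under 0.05.

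Interferon-responding-like cells, led by Ifit3, Ifit1 and Isg15, had member levels close to those of iNKT1-like cells. Against iNKT1-like cells edgeR called 0 of 40 higher (10.3% of 12788 genes) and 1 lower, Cks1b (10.4% of genes), with a median of -0.15. In this class the summed members stood at 275 and 325 CPM in WT and at 588 and 752 CPM in ACC1 KO, and 36 of the 40 members passed the filter on low counts. Of those 36, 32 were above both WT libraries in both ACC1 KO libraries (14.4% of genes tested), as were the 4 that did not pass. The exceptions were Bub3, Kif23, Racgap1 and Ncapd2. The counts behind this were small. A member low in WT could pass that filter through its ACC1 KO counts alone, as Ube2c did. Such a member was bound to lie above WT, so the number of members above WT is no separate support. Ube2c had 1 and 4 UMIs in WT and 64 and 141 UMIs in ACC1 KO (0.388 and 0.656 against 15.2 and 19.1 CPM), and it was the only member called by edgeR (log2 fold change 4.86 ± 0.42, which depends on the prior count at so few WT UMIs, adjusted p = 0.0136; 0.0736% of genes). DESeq2 called 9 (0.317% of genes). At 2000 UMIs per cell, with doublets kept, or with the members left in the clustering, 0 passed, and in the last case the median was 0.04. Top2a stood at 3.88 and 10.2 CPM in WT and 27.5 and 57.1 CPM in ACC1 KO, and Birc5 at 1.55 and 4.10 CPM against 20.4 and 26.3 CPM, and neither passed (edgeR adjusted p = 0.370 and 0.0530). Mitosis-high cells in this class numbered 1 of 528 and 3 of 987 in WT (0.189 and 0.304%) and 8 of 889 and 19 of 1080 in ACC1 KO (0.9 and 1.76%; two-sided exact permutation p = 0.33, the smallest possible).

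iNKT0-like and iNKT17-like cells were too few in some libraries for a test. Summed members stood at 1994 and 711 CPM in WT and 1297 and 972 CPM in ACC1 KO in iNKT0-like cells, and at 767 and 1918 CPM against 1716 and 1300 CPM in iNKT17-like cells, so that the ACC1 KO libraries lay between the WT libraries in both classes. Among named members, Smc4 stood at 244, 273, 268 and 290 CPM in iNKT0-like cells in library order, with little spread. Top2a spread from 18 to 94.3 CPM there. The iNKT0-like sums rested on 465, 198, 441 and 509 UMIs. Few of these cells were mitosis-high: 1 of 53, 0 of 45, 1 of 78 and 1 of 83 iNKT0-like cells in library order. Among iNKT17-like cells it was 1 of 84, 4 of 85, 2 of 25 and 2 of 32.

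Other genes of the cycle were read from lists. Of 56 other mitosis genes, edgeR called 0 in all iNKT cells (0.0068% of genes; 14 at an unadjusted p under 0.05, against 4.9% of genes) and DESeq2 called 1 (0.621% of genes). Their median log2 fold change was 0.86, and 41 were above both WT libraries in both ACC1 KO libraries (14.2% of genes, with 15.2% below). The lists that follow are read against the same shares of genes. Sgo1, the shugoshin that guards centromere cohesion, stood at 3.30 and 4.75 CPM in WT and 9.17 and 8.81 CPM in ACC1 KO, and Psrc1, a spindle protein, at 0.282 and 0.470 CPM and at 1.64 and 1.12 CPM. The 51 S phase genes had a smaller median of 0.28, with 24 apart and higher, 0 called by edgeR or DESeq2 and 7 at an unadjusted p under 0.05. Uhrf1, which keeps DNA methylation through replication, stood at 8.62 and 11.7 CPM in WT and 16.5 and 17 CPM in ACC1 KO, and the cyclin Ccne2 at 4.43 and 4.93 CPM and at 7.13 and 7.21 CPM. The 23 regulators of mitotic transcription had a median of 0.11, with 8 apart and higher and 2 apart and lower, 0 called by either tool and 2 at an unadjusted p under 0.05. Of the regulators E2f2 stood at 4.07 and 6.4 CPM in WT and 9.31 and 10.2 CPM in ACC1 KO, and Tfdp1, a dimer partner of the E2F factors, at 26.8 and 24.6 CPM and at 36.7 and 31.8 CPM. Of 19 inhibitors of the cycle and genes of resting cells (median 0.17), edgeR called 0 (1 at an unadjusted p under 0.05) and DESeq2 called 1 higher, while of 9 G1 cyclins and growth genes (median 0.23) both tools called 0 (1 at an unadjusted p under 0.05). Pik3ip1, a restraint on PI3 kinase in resting T cells, stood at 38.4 and 30.4 CPM in WT and 81.2 and 63.0 CPM in ACC1 KO, apart and higher. Klf2, a factor of resting T cells, stood at 354 and 409 CPM and at 595 and 446 CPM. Of the G1 genes, the kinase Cdk6 stood at 22.6 and 16.3 CPM in WT and 30.4 and 28.6 CPM in ACC1 KO, and Myc overlapped at 53.9 and 40.3 CPM and at 68.6 and 51.0 CPM.

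Between classes, 55 of 56 other mitosis genes and 47 of 51 S phase genes were higher in iNKT2-like cells by edgeR (29.7% of genes), and 2 S phase genes were lower (27.9% of genes). Among regulators 14 of 23 were higher and 1 lower, and Foxm1 and Mybl2, which drive transcription of mitotic genes, had the smallest p of them. Among inhibitors and genes of resting cells 7 were higher and 9 lower. The ACC1 KO change was lower in iNKT2-like than in iNKT1-like cells for 11 of 56 other mitosis genes, 13 of 51 S phase genes and 1 of 23 regulators by edgeR (0.619% of genes).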

How the data were processed

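The deposited values were UMI counts for each gene in each barcode. Per the submitters' processing notes, the authors ran Cell Ranger 7.0.0 against mm10. The barcode lists and gene names were used as deposited. All members and lists were chosen with earlier results of these data known.

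A cell needed 500 or more genes, 1000 or more UMIs and a mitochondrial share under 10%, and 4.36 to 7.91% per library were removed as doublets (2 simulated doublets per cell, 0.8% of cells per 1000). Cells were clustered with scanpy 1.11.5 (2000 variable genes, 30 components, 15 neighbours, Leiden resolution 1) after scaling within each library number. Left out of clustering were 1904 genes: the members, the other cell cycle lists, histones, receptor segments, Xist, Y-linked and mitochondrial genes, and 1205 genes whose correlation with the summed members was beyond 0.1 in size. Doublets were removed before, and clusters were named by scores of markers, with score limits set on these data. A cluster of 107 cells stayed unnamed, and a cluster of 114 cells led by Rad51b and Mki67 was kept as iNKT1-like.

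UMIs were summed per library for all iNKT cells, which gave 23.6 to 65.2 M UMIs, and for each class that had 50 or more cells in all 4 libraries. edgeR 4.0.16 (glmQLFit, robust, TMM, filterByExpr, no covariate) compared genotypes, with p-values adjusted by Benjamini and Hochberg's method across every gene in the fit and called under 0.05. Classes were compared on 8 sums with the library as a term. The share of positive cells was tested with edgeR and the level per positive cell with limma 3.58.1 on log2 means. DESeq2 1.42.0 was an alternative. Other alternatives were filters, normalization, doublets, the mitochondrial limit, clustering, thinning, the mix of classes and leaving out each library. CPM used TMM factors, and differences within a number used a pseudocount of 2 counts. Each standard error (SE) belongs to its log2 fold change. It was worked out as the size of that change divided by the square root of edgeR's F statistic.

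Members named in full were, per role group, the 2 with the highest mean CPM and the one with the smallest unadjusted p. Genes of other lists were named only from the 2 per list with the smallest p. The edgeR fits named next were tested on counts drawn with known changes at the same depths, independently for each library. For the genotype in all iNKT, iNKT1-like, iNKT2-like and interferon-responding-like cells, edgeR found 36, 33, 35 and 41% of 2-fold changes. It found 76, 82, 89 and 90% of 4-fold changes, and 17, 10.9, 12.1 and 18.1% of its calls were of unchanged genes, above the 5% that the adjustment aims at. For the difference between classes in the genotype change it found 55 and 81%, with 4.9% of calls of unchanged genes. The drawn classes had the same mean levels, while 57.7% of genes differed between the real classes. Real libraries of the same number also deviated together. The 4.9% therefore need not hold for the calls reported here.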

Additional observations from a re-analysis of the deposited data

Results flagged for a closer look

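The ACC1 KO against WT change was lower in iNKT2-like than in iNKT1-like cells for 19 of 40 members (0.619% of genes), by the edgeR test of that difference itself. Among the members described in full these were Cks2 (iNKT2-like minus iNKT1-like, -0.60 on the log2 scale), Cks1b (-1.27), Cdca8 (-1.07), Aurkb (-1.31), Bub1b (-1.33), Cenpa (-0.71) and Nusap1 (-1.31). With the members left in the clustering none of the 40 passed that test.

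Cells outside the comparisons also carried many members. Of double-positive thymocyte-like cells with 2000 UMIs or more, 50 of 125 in WT 1, 9 of 60 in WT 2, 82 of 125 in ACC1 KO 1 and 20 of 79 in ACC1 KO 2 were mitosis-high. Many shallower cells of this type were left out there. At 1000 UMIs per cell, where all were kept but fewer members can be found, it was 45 of 227, 7 of 74, 61 of 225 and 18 of 96. Of B cell-like cells, 35 of 373 in WT 1 were mitosis-high and 0 in the other libraries, and the cells of 1 B cell-like cluster of 115 all came from WT 1.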

How the results depend on the processing

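Counts of members called are given out of 40, by edgeR unless another tool is named. Without a filter on low counts, 23 members were called in all iNKT cells, 23 in iNKT1-like and 27 in interferon-responding-like cells (1.6, 1.29 and 0.917% of all genes). Leaving out 1 library gave 0 to 15, 0 to 11 and 5 to 18 calls in these (0.0379 to 0.549%, 0.0743 to 0.254% and 0.359 to 0.687% of genes), 20 to 29 for the difference between classes in the genotype change (0.869 to 1.74%), and 0 to 8 for the share of positive cells (0.016 to 0.827%). In interferon-responding-like cells, where every alternative was added after seeing the data, the DESeq2 Wald test called 9 (0.317% of genes) and resolution 2 called 4 (0.162%), while a mean of at least 10 CPM, doublets kept, members left in the clustering and thinning each called 0. For the difference between classes, members left in the clustering gave 0 calls and thinning 9. The members' median log2 fold change over all iNKT cells was 0.45 to 1.54 without 1 library and 0.24 with the same mix of classes. It was 0.32 with the same mix of clusters, a setting that also left out the cluster led by members and was added after seeing the data. It was 0.55 over every deposited barcode. The log2 ratio of mitosis-high shares was 0.81 with the same mix of classes.

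Libraries with the same number deviated together from their genotype means (r = 0.784 over 14702 genes and 0.719 over the members), but there were only 2 pairs and the labels do not say what a number marks. With the replicate block, 32, 23 and 30 members were called in all iNKT, iNKT1-like and interferon-responding-like cells, against 8.71, 9.01 and 6.15% of genes, and 10 members were called for the share of positive cells (1.93% of genes). With the block in DESeq2, added after seeing the data, the counts were 26, 11 and 9 (2.5, 2.07 and 0.796% of genes). In iNKT2-like cells 0 were called in any fit.

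All 40 members (36 of 36 tested at 10 CPM or more) were higher in iNKT2-like than in iNKT1-like cells in every alternative that kept the 4 libraries, and 30 to 40 without 1 library. Of 540 values of the 17 members described in full, 538 kept their direction. Bub3 reversed in all iNKT cells, to -0.03 without WT 2 and to -0.16 without ACC1 KO 1, and was 0.39 without ACC1 KO 2. Without thinning or at 1000 or 3000 UMIs, and with 4 or 8 members as the limit, the mitosis-high shares of the genotypes did not overlap, as they did with the same mix of classes. The shallow libraries numbered 1 limit low members, and 2 libraries per genotype limit every call.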
